A study of Mus musculus with 4 samples.

Results

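A group of 10 genes of the intestinal epithelium was followed in liver RNA: *Cdx1*, *Cdx2*, *Lct*, *Alpi*, *Mep1b*, *Slc5a1*, *Guca2b*, *Muc13*, *Cdh17* and *Lgals4*. They are 10 of the 36161 gene names on the array and were picked by name, after genes of the gut had been seen to stand out in these samples. The values that chose them are the same array signals that are given here, so every level and difference of these genes is a description and carries no test. The arrays compared livers of mice with microsomia with livers of control mice of normal weight, in each sex. Microsomia is a low weight at birth for the sex, which the authors describe as non-genetic in these inbred mice. One array was deposited for each of the 4 groups, all at embryonic day 20 in strain C57BL/6J per the labels: microsomic mice, female (MF) and male (MM), and control mice, female (CF) and male (CM). The methods speak of replicate experiments on newborns of C57BL/6 N, and how many animals gave the RNA of an array is not given in the sources used here. The tissue is labelled as whole liver on each array, with no sort of cells. The groups have no replicate arrays, so no spread can be given, and the number of arrays limits the precision of every value.

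The lining of the intestine is a sheet of absorptive enterocytes, with goblet cells that secrete mucus and enteroendocrine cells that secrete hormones, renewed from stem cells in the crypts. The apical face of an enterocyte carries a brush border of microvilli packed with hydrolases and transporters that finish digestion and take up sugars, amino acids and lipids. The homeobox factors *Cdx1* and *Cdx2* set the identity of this epithelium, and the liver arises from a more anterior part of the endoderm, where they are normally silent.

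The 10 genes were read by 12 probes, 3 of them for *Lgals4* and 1 for each of the others. A probe is a strand of 60 bases that captures the labelled copy of its transcript, so each signal below refers to a single short stretch of the mRNA. The stretches of 30 bases shown here come from the probes of genes with large differences and from both overlapping *Lgals4* probes. Letters in capitals mark windows of 5 bases that hold only C and T, with 3 or more C. Each stretch is the first in its probe that holds the most such windows.
*Lct* probe, bases 14 to 43: ttgatggtagactcaagagcacggaCTTCC
*Alpi* probe, bases 31 to 60: ctctaggcttctgcttttcaactgaCTTCC
*Guca2b* probe, bases 1 to 30: aTCCTCCCagcataaatggatccttagcaa
*Cdx2* probe, bases 1 to 30: gccttttaaaaagCCTTCttgatccatggg
*Cdh17* probe, bases 1 to 30: cagctgtttaatttcatccaaaatgtgaac
*Lgals4* probe A_55_P2063256, bases 15 to 44: gaaagaTCCCCgagttccatctaagCTCCT
*Lgals4* probe A_51_P497100, bases 18 to 47: gaaagaTCCCCgagttccatctaagCTCCT
The *Cdh17* probe holds no such window, and the shared stretch of the *Lgals4* probes shows that they read the same piece of the transcript. Windows of this kind are marked because probes with 4 or more of them are left out of a later count. Such probes made up 8.64% of all 55681 probes, and only the *Cdx1* probe, with 5 windows, was one among the 12. The effect of these windows on the signal was not tested.

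Levels are log2 processed signals after subtraction of the 75th percentile of the array, so that 0 is the signal below which 75% of the spots of that array lie. A spot was called well above background by the scanner software, array by array. The lowest such signal had a level of -5.98 on MF against -5.65 in MM, -5.48 in CF and -4.62 in CM. Where a gene was not well above background on an array, its difference from MF was taken against this limit, or against its own signal if that was higher, and is written as at least N-fold.

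The liver markers were bright on all 4 arrays: *Alb*, the gene of serum albumin, had a level of 10.62 on MF against 9.63 in MM, 10.40 in CF and 9.96 in CM, and 10 of 10 hepatocyte genes were well above background on each array. The CF array stood apart for genes of heart muscle, with 6 of 8 listed genes over 1.5-fold above each of the other arrays. The same held for 4.70% of the 22703 genes well above background on CF. *Myl2*, the ventricular myosin light chain, had a level of 5.76 on CF and of -1.13 or less on the others. Comparisons with CF are therefore given beside those with MM and CM. The share of the 59305 non-control spots that passed this call ran from 56.1% to 65.3%, and 916 spots on MF carried the software's non-uniformity flag, against 130 to 182 on the other arrays. None of the 12 probes had a flagged or saturated spot on any array (0 of 12 in each case).

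All 10 genes were well above background on MF, against 4 in MM, 4 in CF and 3 in CM. The level on MF exceeded that on each of the other arrays by more than 1.5-fold for 10 of 10 genes, and 8.58% of the 24718 genes well above background on MF did the same. Because these genes were chosen on this pattern, nothing is read from that count. The log2 difference between MF and the highest of the other arrays had a median of 4.54 over the 10 genes, a fold of 23.3 in which 6 of the 10 values are lower bounds. The values ran from 3.53 for *Lgals4* to 6.18 for *Lct*. The median over all 24718 genes was -0.49. In a bulk sample, more cells of a type and more RNA per cell cannot be told apart.

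**Figure D1:**
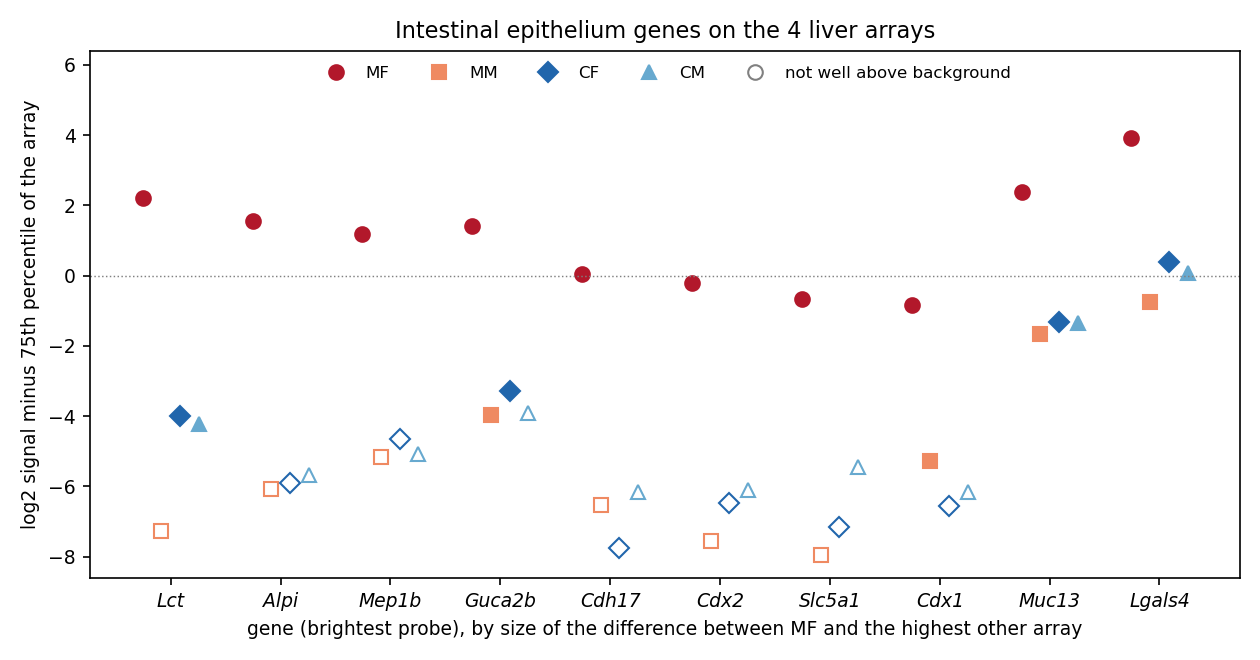
Levels of the 10 intestinal epithelium genes on the 4 arrays, as log2 signal minus the 75th percentile of the array on the vertical axis, for the brightest probe of each gene. Filled symbols are well above background and open symbols are not; the MF value lies at least 3.53 above every other array for each gene.

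The homeobox factors came first in this order of roles. *Cdx2*, which directs intestinal gene expression from the embryo to the adult, had a level of -0.20 on MF against -7.56 in MM, -6.47 in CF and -6.10 in CM. It was well above background on MF alone, and the difference was at least 21.5-fold. Its probe lies at chr5:148112547-148112606 (mm9, minus strand). *Cdx1*, its relative expressed in the crypts, had a level of -0.83 on MF against -5.28 in MM, -6.56 in CF and -6.17 in CM. Besides MF, only MM gave a signal well above background, at 21.9-fold under that of MF, and the difference from the nearest limit, that of CM, was at least 13.9-fold. Its probe lies at chr18:61178558-61178617 (mm9, minus strand) and is the one with 5 windows of C and T.

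The 3 hydrolases of the brush border gave the largest values of the group, counting a bound at its limit. *Lct*, the lactase that splits milk sugar in the suckling gut, had a level of 2.20 on MF against -7.26 in MM, -3.98 in CF and -4.22 in CM (probe at chr1:130181389-130181448, mm9, minus strand). Both control arrays were well above background and close to each other, MM was not, and MF was 72.6-fold over CF, the highest of the others. The control signals of *Lct* were low, at 42.7 on CF and 33.7 on CM, with software errors of 21.5% and 20.1% of the signal. With normexp its log2 difference from the highest other array was 4.45. *Alpi*, the intestinal alkaline phosphatase, had a level of 1.56 on MF against -6.08 in MM, -5.91 in CF and -5.67 in CM (probe at chr1:88994890-88994949, mm9, minus strand). It was well above background on MF alone, where it was at least 72.5-fold higher. *Mep1b*, the beta subunit of the metalloprotease meprin, had a level of 1.20 on MF against -5.15 in MM, -4.64 in CF and -5.08 in CM (probe at chr18:21258609-21258668, mm9, plus strand). It too was well above background on MF alone, at least 56.5-fold over the others.

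*Slc5a1*, which encodes the sodium-coupled glucose transporter of the brush border, had a level of -0.66 on MF against -7.94 in MM, -7.15 in CF and -5.46 in CM. It was well above background on MF alone and at least 15.6-fold higher there (probe at chr5:33504561-33504620, mm9, plus strand). *Guca2b*, the precursor of uroguanylin, a peptide secreted into the gut lumen that acts on fluid and salt transport, had a level of 1.40 on MF against -3.97 in MM, -3.28 in CF and -3.92 in CM. MM and CF were well above background and CM was not, and MF was 25.6-fold over CF (probe at chr4:119329250-119329309, mm9, minus strand). *Muc13*, a transmembrane mucin of the apical surface, had a level of 2.39 on MF against -1.67 in MM, -1.31 in CF and -1.35 in CM (probe at chr16:33819909-33819968, mm9, plus strand). It was well above background on all 4 arrays. The 3 lower arrays lay within 0.37 of each other, and MF was 13.0-fold over CF.

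*Cdh17*, the liver-intestine cadherin that joins enterocytes, had a level of 0.03 on MF against -6.53 in MM, -7.74 in CF and -6.16 in CM (probe at chr4:11744272-11744331, mm9, plus strand). The signal was well above background on MF alone and at least 25.2-fold higher there. *Lgals4*, a galectin that organises glycoproteins at the apical membrane, was the other gene well above background on all 4 arrays. Its brightest probe had a level of 3.93 on MF against -0.75 in MM, 0.40 in CF and 0.08 in CM, an 11.5-fold difference between MF and CF (chr7:29626661-29626720, mm9, plus strand). MF was the highest array and MM the lowest.

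Agreement between probes could be read for *Lgals4* alone. Over its 3 probes the level ranged from 3.57 to 3.93 on MF, against -1.07 to -0.75 in MM, 0.40 to 0.64 in CF and -0.54 to 0.08 in CM. The order of the arrays, MF over CF over CM over MM, was the same in each probe, and the difference of MF from the highest other array lay between 2.99 and 3.53. The probes A_51_P497100 (chr7:29626658-29626717) and A_55_P2063256 share 57 of their 60 bases, while A_55_P2063257 (chr7:29626555-29626614) overlaps neither, so the 3 probes read 2 places in the transcript.

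As a share of the scaled signal summed over the 4 arrays, MF held 82.5% for *Muc13* at the lowest and 98.3% for *Alpi* at the highest, with a median of 95.4%, where an even split would give 25%. Of the signal summed over all 10 genes, 88.4% was on MF. Signals at background on the other arrays are counted in these shares, so that a share understates the excess of a gene that was not measured there.

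**Figure D2:**
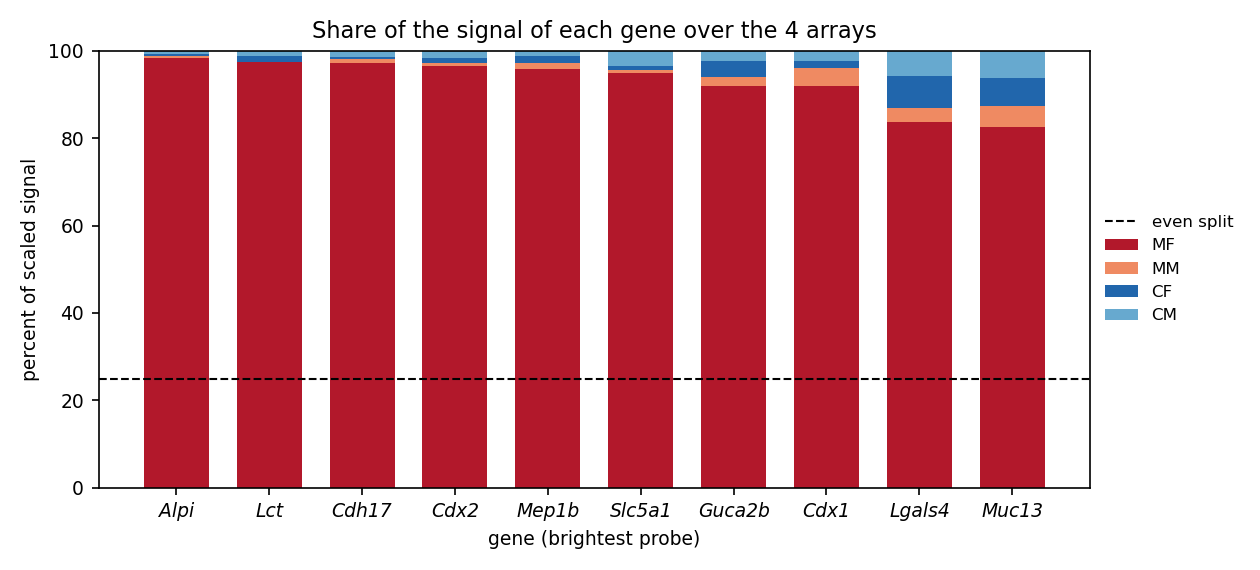
Share of the scaled signal of each gene on each of the 4 arrays, in percent, with the dashed line at the even split of 25%. The MF share runs from 82.5% for *Muc13* to 98.3% for *Alpi*.

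The spots of the 12 probes were spread over the array, between rows 52 and 368 of 384 and columns 34 and 162 of 164. The error that the scanner software attached to their signal on MF was at most 10.1% of the signal, which covers the spot and not the sample. On the other arrays, where many of these signals were at background, it reached 101%, for *Cdx2* on CF. The factor by which the software divided each signal to level the array ranged from 0.558 to 1.46 over these spots on MF. For the same spot the factor also differed between arrays, with MF lower for *Cdx2* and higher for *Cdh17* than MM. The part of this factor in the differences between arrays was not tested.

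In MF vs CF, 10 of 10 genes were over 1.5-fold higher in MF, beside 19.9% of the 25538 genes compared, with a median log2 difference of 5.05. In MM vs MF, 10 of 10 were lower in MM, beside 20.1% of 26735 genes, with a median of -5.41. Only 4 of the 10 genes were well above background on CF and 4 on MM. Both medians are therefore bounds, and the differences could be larger. The rule used both contrasts. In MM vs CM, 5 genes reached a signal well above background in either array, and 2 of them were over 1.5-fold lower in MM, beside 23.1% of 26315 genes. These were *Lct*, at a log2 difference of -1.43 against the limit of MM, and *Lgals4*, at -0.83; with the deposited signals left unscaled (549 on MM and 663 on CM) *Lgals4* was under 1.5-fold. *Muc13* differed by -0.32, and no difference could be measured for *Cdx1* and *Guca2b*, which were well above background on MM and not on CM. In CM vs CF, 1 of 4 genes, *Guca2b* at a log2 difference of -0.65 with CM not well above background, was over 1.5-fold lower in CM, beside 19.5% of 25204 genes. Over the 25538 genes compared in MF vs CF the median log2 difference was -0.04. A separate median of MF minus CF over all genes was -0.19 under this scaling and lay between -0.22 and 0.21 under the others. The part of the scaling in the differences of the 10 genes was not tested.

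Among all 24718 genes well above background on MF, 77 (0.312%) had a difference from the highest other array as large as that of *Lgals4* or larger, the 10 chosen genes included. *Lct* stood at place 5 in this order, *Alpi* at 6, *Mep1b* at 9, *Guca2b* at 19, *Cdh17* at 21, *Cdx2* at 25, *Slc5a1* at 45, *Cdx1* at 56, *Muc13* at 67 and *Lgals4* at 77. Places of genes with a lower bound could be higher. Genes outside the group held lower bounds too, so places of the 10 genes could also be lower, and the count of 77 is a minimum.

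**Figure D3:**
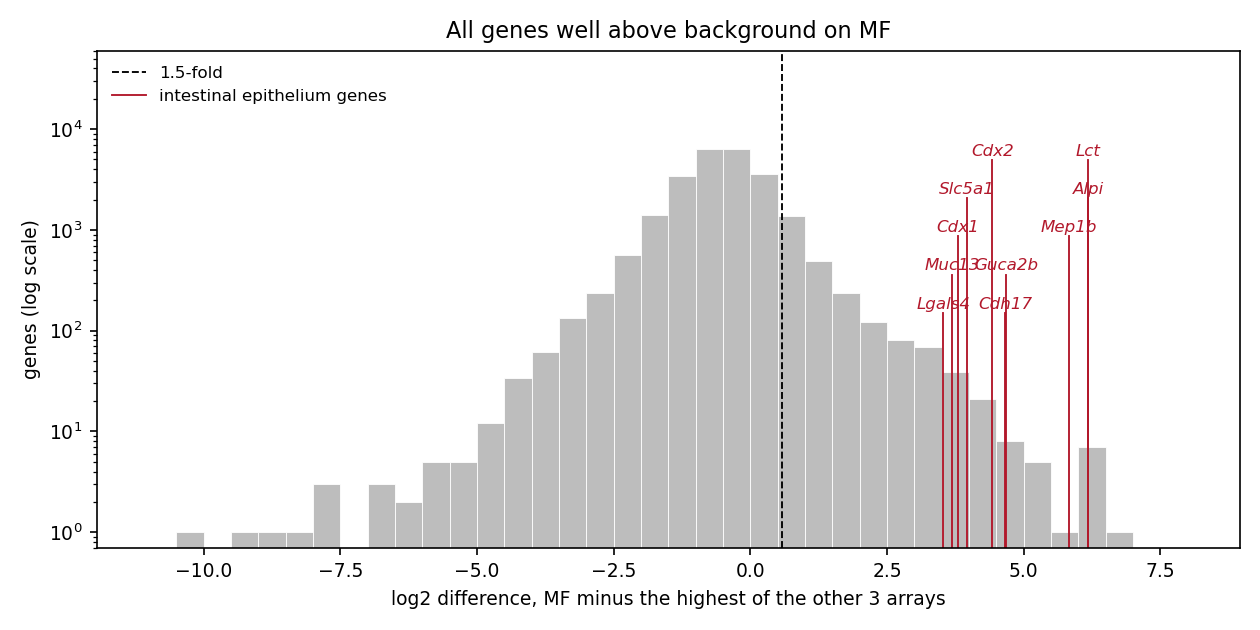
Distribution of the log2 difference between MF and the highest of the other 3 arrays over the 24718 genes well above background on MF, with the number of genes on a log scale. Lines in red mark the 10 intestinal epithelium genes, from 3.53 for *Lgals4* to 6.18 for *Lct*, all in the right tail; the dashed line is 1.5-fold.

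The other genes with the largest differences were led by *Prap1*, a secreted acidic protein of epithelia, with a level of 3.42 on MF against -3.19 in MM, -3.79 in CF and -3.98 in CM, a 97.9-fold difference from MM. *2210415F13Rik* (now *Lypd8*, a secreted protein of the gut epithelium) was at least 81.8-fold higher on MF, *Ms4a10* at least 81.4-fold and *Mamdc4* 75.1-fold. *Rhox7* (72.3-fold), *Otof* (71.9-fold), *Eps8l3* (44.8-fold), *Mfi2* (43.9-fold), *Ntrk2* (38.4-fold), *Reg1* (35.8-fold) and *Sprr1a* (35.0-fold) followed. *Eps8l3* belongs to a family of actin regulators of microvilli and *Reg1* is a secreted lectin of pancreas and gut, whereas *Otof* and *Ntrk2* are best known from sensory and nerve cells. The list of 15 ended with *9430069I07Rik* (at least 31.5-fold), a lincRNA region of chromosome 6 (28.6-fold), *Erp27* (28.2-fold) and a lincRNA region of chromosome 5 (26.7-fold). The probe of *Rhox7* held 5 windows of C and T and that of the lincRNA region of chromosome 6 held 8.

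Likeness of pattern was measured as the distance between the 4 log2 values of a gene, centred on their mean, and the mean centred profile of the 10 genes, with the limit of the array in place of a lower value that was not well above background. Of the 10 nearest genes, 6 were well above background on MF alone, so that their likeness over the other 3 arrays was set by the limits. *AI747448* (now *Clca4b*, a chloride channel accessory protein), at a distance of 0.40, was one of these: it had a level of -0.18 on MF against -7.92 in MM, -7.66 in CF and -5.98 in CM and was at least 21.8-fold higher on MF. *Mfsd2a*, a lipid transporter, at 0.55 was another. The other 4 were measured on all arrays, and *Erp27*, at a distance of 0.48, was the only one of them with a gene symbol.

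Beyond the 10 genes, 88 further genes of gut epithelium had been listed in 8 groups by role, with earlier results of these data known. Of these, 87 had an unflagged probe, 72 were well above background on MF, and 31 of the 72 (43.1%) were over 1.5-fold above each other array on MF, beside 8.58% of all genes. Of the 72, 10 passed the filter through MF alone, the array where they were high. Of the 47 that passed it on each of the 4 arrays, 13 were over 1.5-fold above the others on MF, beside 8.80% of the 19303 such genes. The same count was 3 of 64 genes on MM (5.60% of all genes), 0 of 55 on CF (4.70%) and 5 of 57 on CM (16.6%). The median difference over the 72 genes was 0.32, against -0.49 over all genes. Probes of 4 or more windows of C and T were then left out, a choice made after seeing the data. Of the gut genes, 26 of 64 were then over 1.5-fold above the other arrays, beside 8.15% of all 22583 genes left. As the lists were not chosen apart from these data, the counts are a description and nothing is read from them.

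Of the brush border hydrolases beside *Lct*, *Alpi* and *Mep1b*, 7 of 11 measured on MF were over 1.5-fold higher there. The number fell to 4 with normexp or at 2-fold, and to 3 when genes had to be well above background on all 4 arrays. *Anpep* (1.57-fold) and *Xpnpep2* (at least 1.55-fold) lay near the threshold. *Mep1a*, the alpha subunit of meprin, was 5.84-fold higher on MF, *Asah2*, a neutral ceramidase, 2.32-fold and *Naaladl1*, a peptidase, 2.29-fold. The sucrase-isomaltase gene *Sis* had its highest level on CM, with -4.62 on MF and -3.62 on CM. Of the enterocyte transporters, 6 of 14 were higher on MF, led by *Osta*, a subunit of the basolateral bile acid exporter (14.0-fold), *Npc1l1*, the sterol transporter (at least 10.9-fold), *Slc7a9*, an amino acid transporter (8.79-fold), and *Slc26a3*, the chloride exchanger (at least 7.41-fold). The transporter count was 2 when genes had to be well above background on all 4 arrays, and 8 without the MM array. By more than 1.5-fold, *Ostb*, the partner of *Osta*, was higher on MM (0.27 against -0.78 on MF) and the calcium channel gene *Trpv6* on CM (-2.07 against -3.71).

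Of the genes for lipid handling, 2 of 5 were higher on MF, a count of 1 with quantile normalization, with normexp or at 2-fold and of 3 without scaling. *Mogat2*, which rebuilds triglyceride in the enterocyte, was 2.97-fold higher, and *Fabp2*, the intestinal fatty acid binding protein, 1.97-fold. The level of *Fabp2* was 5.95 on MF against 4.98 in MM, 2.81 in CF and 2.59 in CM, so that both M arrays lay above both C arrays. *Apoa4*, an apolipoprotein of gut and liver, was highest on MM at 6.10, with 4.81 on MF. Of the structural genes, 7 of 13 were higher on MF: *Ush1c* (at least 13.9-fold), a scaffold of the microvillus tip, *Vil1* (9.71-fold), the villin of the microvillus core, *Cdhr5* (4.90-fold), a cadherin of the microvilli, and *Epcam* (4.33-fold), an adhesion molecule of epithelia, were the largest.

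Of 7 other transcription factors of the gut, *Isx*, an intestine-specific homeobox factor, was at least 10.4-fold higher on MF and *Elf3* 4.27-fold, while *Gata4* differed by -0.18, *Gata6* by 0.06 and *Hnf4g* by 0.03 on the log2 scale. The count of 2 for these factors became 0 when genes had to be well above background on all 4 arrays, and 3 with normexp. Of the goblet cell genes, 1 of 6 was higher on MF, *Fcgbp*, a mucus protein, at least 9.79-fold. This became 0 with the same filter and 3 without scaling. *Muc2*, the defining mucin of goblet cells, was not well above background on any array, and *Tff3* had a level between 6.67 and 7.40 on all of them. Of the enteroendocrine genes, 6 of 9 were higher on MF, with the hormone genes *Cck* (at least 11.3-fold) and *Sct* (7.54-fold) and the granule protein gene *Chgb* (at least 4.63-fold) at the head. That count was 3 with normexp or at 2-fold and 1 when genes had to be well above background on all 4 arrays. Of the crypt and Paneth cell genes, 0 of 7 were, and *Lgr5*, the stem cell marker, had levels between -2.35 and -1.88 on the 4 arrays.

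**Figure D4:**
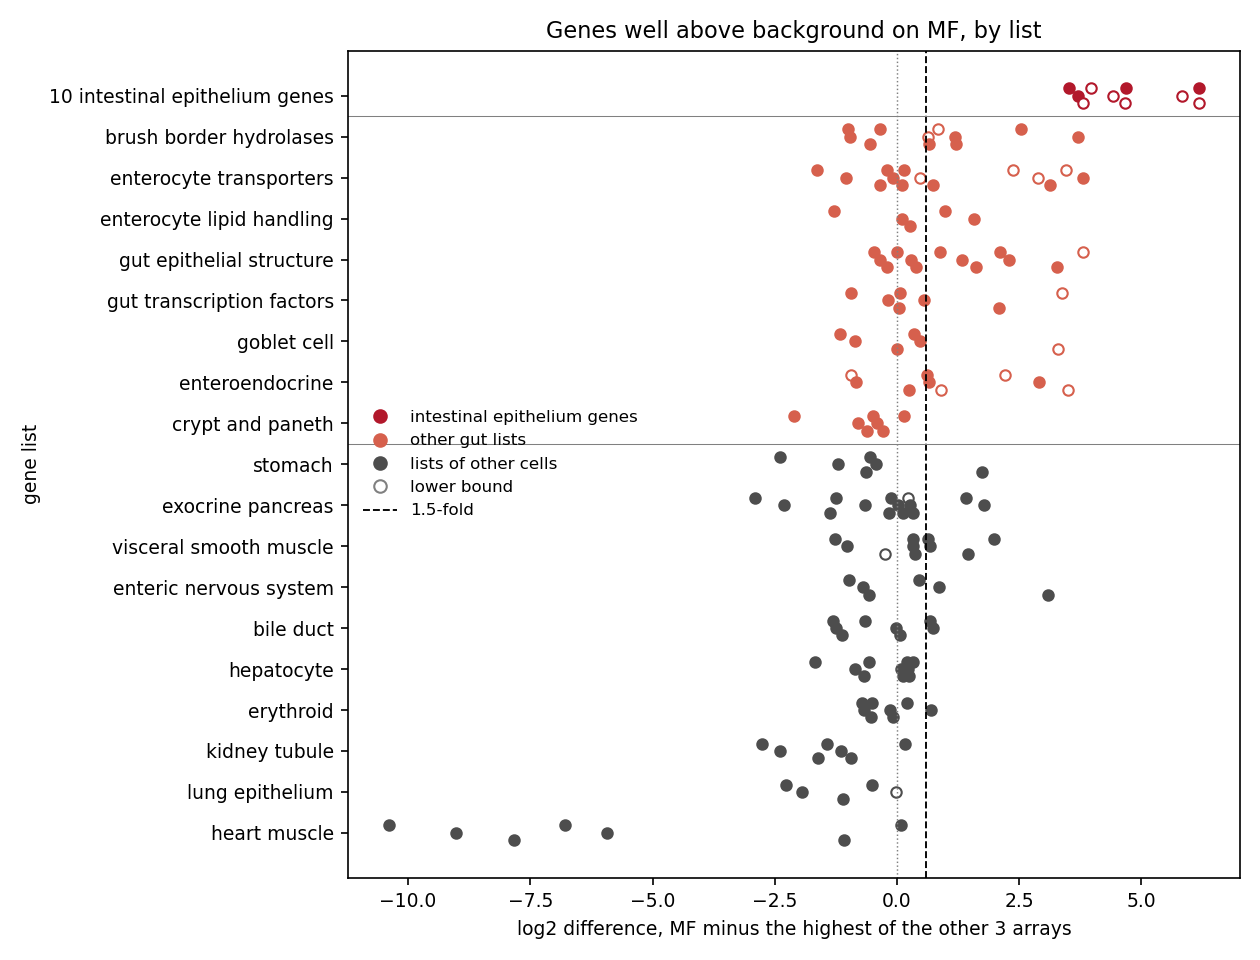
Log2 difference between MF and the highest of the other 3 arrays for the genes of each list that were well above background on MF, 1 point a gene. Open points are lower bounds and the dashed line is 1.5-fold. Of the 72 other gut genes 31 lie to its right, and 5 of the 7 heart muscle genes lie at -5.93 or lower, with their highest level on CF. The lists were chosen with earlier results of these data known.

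Genes of other cell types were listed in the same way, and their counts stand beside the same 8.58% of all genes. Of the smooth muscle genes, 4 of 10 were over 1.5-fold higher on MF. They were the gut and bladder actin gene *Actg2* (3.95-fold), *Cnn1* (2.74-fold), *Acta2* (1.60-fold) and *Tagln* (1.55-fold). The count was 2 at 2-fold and 6 with centring on the median or without the CM array. In the other direction, *Des* was over 1.5-fold higher on CF than on MF, and *Synpo2* on CM. The summed scaled signal of the list was 21.8 on MF against 6.55 in MM, 14.2 in CF and 9.36 in CM. *Acta2* and *Tagln*, with levels of 3.27 and 2.61 on MF, weigh most in the sum on MF. Of the enteric nervous system genes, 2 of 6 were higher, *Elavl4* (8.54-fold) and *Chat* (1.82-fold). *Hand2* on CF and *Sox10* on CM were over 1.5-fold above MF. *Ret*, a receptor of enteric neurons and their precursors, was not well above background on any array.

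Of the exocrine pancreas genes, 2 of 14 were higher on MF, *Ctrb1* (3.44-fold) and *Cela3b* (2.68-fold), a count that rose to 6 without the CM array, to 5 without scaling and to 4 with centring on the median or quantile normalization. Of the stomach genes, 1 of 6 was, the proton pump gene *Atp4a* (3.36-fold), and *Gkn2* and *Gif* were not well above background on any array. Of the bile duct genes, 2 of 8 were higher, *Cftr* (1.67-fold) and *Krt19* (1.59-fold). For hepatocyte genes the count was 0 of 10, but 4 without scaling and 2 with centring on the median. For erythroid genes it was 1 of 8 (*Alas2*, 1.62-fold) and between 0 and 2 under the alternatives. For kidney tubule genes it was 0 of 7, for lung epithelium genes 0 of 5 and for heart muscle genes 0 of 7. The part of any of these cells in the levels of the 10 genes was not tested.

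Promoters could be read for 7 of the 10 genes, in RefSeq windows of GRCm38.p6 that start 250 bases before the transcript and end 50 bases inside it. Motifs were searched on both strands: TTTATG, bound by CDX factors, GTTAAT, bound in part by HNF1 factors, and AGATAA, bound by GATA factors. TTTATG was present for *Lct* and *Muc13* and in 11.9% of all 32851 windows, GTTAAT for *Cdx2*, *Guca2b* and *Muc13* and in 7.10%, and AGATAA for *Lct* alone and in 11.2%. *Lct*, with the largest measured difference, is shown for the 116 bases that hold its matches, chr1:128328324-128328439 on the minus strand, with the matches in capitals: 2 of AGATAA, one on each strand, and 1 of TTTATG on the reverse strand, 31 bases before the start. None of them overlap.
*Lct* promoter: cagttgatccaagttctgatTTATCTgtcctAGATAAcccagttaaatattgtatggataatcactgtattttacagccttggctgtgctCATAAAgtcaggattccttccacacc
A match is a run of letters and does not show that a factor was bound.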

How the data were processed

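The authors labelled liver RNA with Cy3, hybridized it to 1-colour Agilent mouse arrays and quantified them with Agilent Feature Extraction 10.7.3.1. Per the file headers and columns, the deposited processed signals are linear intensities, corrected by a background surface and by a detrending ratio that the authors deposited beside them, and were not normalized between arrays. The deposited table of values equalled this signal in all 59305 non-control spots of each array. The number of arrays and the signal over background limit the precision.

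From these, the log2 signal minus the 75th percentile of the array was computed (Python 3.11.15). Spots that carried an outlier flag (1754 over the 4 arrays) were removed, spots of a probe were averaged, and a gene was taken by its brightest probe. A probe with several spots counted as well above background when a share of at least 0.5 of them were, a rule set after values had been seen. A gene was called past 1.5-fold. No test was run, since 1 array per group leaves 0 residual degrees of freedom for a pair. limma 3.58.1 was used for quantile and normexp (offset 50) normalization, as alternatives with centring on the median, no scaling, trends of position and GC removed, flagged spots kept, the mean over probes, other filters and a 2-fold threshold. The script was tested on simulated data.

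The members and lists were chosen with earlier results of these data known. Named genes are the 10 members, the 15 others with the largest difference, the 10 with the nearest profile, and the leading 4 of each list with up to 2 past 1.5-fold the other way; some of these are given by count alone or are not reported here, and other genes of the lists were named after their values were seen. Positions are in mm9, from the annotation of the array; whether a probe lies in a coding exon or a UTR was not determined here.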

Additional observations from a re-analysis of the deposited data

Results flagged for a closer look

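For 2 of the genes the difference between M and C passed 1.5-fold in opposite directions in the sexes. *Lct* was higher in MF than in CF by 6.18 on the log2 scale and lower in MM than in CM, by at least the difference of -1.43, as MM was not well above background, so that the sexes differed by at least 7.62. *Lgals4* was higher in MF than in CF by 3.53 and differed by -0.83 between MM and CM, 4.36 apart; without scaling, or at 2-fold, the *Lgals4* difference between MM and CM was not past the threshold. The CM level of *Lct*, -4.22, lay close to the lowest level well above background on that array, -4.62. Both genes were chosen on their high level on MF, which gives the larger part of each difference between the sexes. With 1 array per group these differences between the sexes were not tested.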

How the results depend on the processing

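Over 11 alternatives for each of the 10 genes, 110 of 110 differences between MF and the highest other array kept their direction and their side of 1.5-fold, with a range of 1.96 (*Cdx1*) to 7.04 (*Alpi*). Several alternatives could not lower a difference. Leaving out 1 of the other arrays can only keep or raise it. Keeping flagged spots changed nothing, as no probe of these genes was flagged, and the mean over probes changed *Lgals4* alone. The genes were also chosen on this pattern, so nothing is read from the count. The median of the 10 differences was 4.54 and lay between 3.46 with normexp and 5.01 without scaling, and between 4.54 and 5.05 when 1 of the other arrays was left out. When genes had to be well above background on both arrays, the counts in MF vs CF and in MM vs MF fell to 4 and 4 genes, because fewer could be compared. In MM vs CM the count of 2 became 1 without scaling, with that filter or at 2-fold, and 4 with no filter. In CM vs CF the count of 1 became 3 with centring on the median, 2 with quantile normalization, normexp or the mean over probes, and 0 with the position trend removed, with that filter or at 2-fold; the cause was not tested. The count of other gut genes went from 31 to 13 when they had to be well above background on all 4 arrays, and was 32 to 36 when 1 of the other arrays was left out. No paired analysis was possible because each group has 1 array.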
